A study of Mus musculus with 15 samples.

Results

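The 10 genes studied here belong to the transforming growth factor beta (TGF-beta) system and were followed through injured kidney and lung of mice given either a leptin antibody or control IgG. They were the rows, of 56748 gene rows in the count table, whose gene name was Tgfb1, Tgfb2, Tgfb3, Tgfbr1, Tgfbr2, Tgfbi, Ltbp1, Ltbp2, Smad7 or Inhba. All 10 had enough counts to be tested in both organs. Bulk poly(A) RNA-seq had been made from 15 libraries in 5 groups of 3, all from male wild-type (WT) C57Bl/6 mice. WTK was kidney of mice aged 10 to 12 weeks that received the vehicle, and the labels name no antibody for it. IgGK and LepK were kidneys of mice of the same age that received a single intraperitoneal dose of folic acid at 200 mg/kg, which injures the tubules, followed by control IgG (IgGK) or the leptin-neutralizing antibody LepAb (LepK). IgGL and LepL were lungs of 12-week-old mice given bleomycin, which injures the alveoli, as a single intratracheal dose of 1.5 units/kg, followed by IgG (IgGL) or LepAb (LepL). Both antibodies were given at 10 mg/kg every other day from day 1, and tissue was taken on day 28 in kidney and day 14 in lung. Dosing had ended before day 28 in the kidney mice, whereas it ran up to day 14 in the lung mice. No lung without bleomycin was analysed here, so in lung the antibody comparison stands alone. The labels do not say that replicates came from separate mice, so p-values measure the spread between these libraries. The count column of LepL replicate 3 is headed LL_3_1, whereas its description gives LL_3.

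TGF-beta is secreted in a latent form, in which the mature dimer stays wrapped in its own propeptide and is tethered to the matrix by latent TGF-beta binding proteins. Once released, often by integrins pulling on the propeptide, it binds the type II receptor, which recruits and activates the type I receptor kinase, and the receptors phosphorylate Smad proteins that carry the signal to the nucleus. In kidney and lung the pathway is best known for driving fibroblasts to become matrix-producing myofibroblasts. Activin A, a dimer of the Inhba product, is a relative of TGF-beta that signals through its own receptors to the same Smads.

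The sequence just before the transcription start is shown for the 5 genes on which the kidney results turn, so that the starts of these genes can be set beside each other. RefSeq's promoter table (build GRCm38.p6, which is not the GRCm39 build of the count table) held a window for 8 of the 10 genes. Each run below is the 250 bases before the start, 5′ to 3′ on the gene's own strand. Capitals mark matches, on either strand, to a Smad element (CAGACA), a Smad palindrome (GTCTAGAC), an AP-1 element (TGANTCA), a GC box (GGGCGG) or a TATA box (TATAAA), and no match overlapped another.
Tgfb1: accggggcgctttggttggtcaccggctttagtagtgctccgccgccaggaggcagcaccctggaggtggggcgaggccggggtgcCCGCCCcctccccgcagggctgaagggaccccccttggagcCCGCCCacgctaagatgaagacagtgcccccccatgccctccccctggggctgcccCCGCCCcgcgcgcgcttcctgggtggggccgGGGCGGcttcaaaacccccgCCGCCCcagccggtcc
Tgfb2: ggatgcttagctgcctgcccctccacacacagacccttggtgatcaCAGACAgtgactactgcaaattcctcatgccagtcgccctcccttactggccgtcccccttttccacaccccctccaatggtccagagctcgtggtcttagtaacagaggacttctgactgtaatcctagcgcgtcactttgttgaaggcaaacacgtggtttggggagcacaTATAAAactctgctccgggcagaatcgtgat
Inhba: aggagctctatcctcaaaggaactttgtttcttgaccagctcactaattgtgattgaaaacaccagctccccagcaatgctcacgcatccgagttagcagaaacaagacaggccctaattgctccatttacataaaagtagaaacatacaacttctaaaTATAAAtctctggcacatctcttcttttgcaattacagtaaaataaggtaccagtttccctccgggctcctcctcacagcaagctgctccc
Ltbp2: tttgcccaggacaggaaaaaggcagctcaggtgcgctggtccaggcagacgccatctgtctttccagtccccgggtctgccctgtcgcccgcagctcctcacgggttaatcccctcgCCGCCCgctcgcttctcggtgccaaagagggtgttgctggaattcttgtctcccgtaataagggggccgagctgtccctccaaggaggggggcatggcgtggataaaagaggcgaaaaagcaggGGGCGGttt
Tgfbi: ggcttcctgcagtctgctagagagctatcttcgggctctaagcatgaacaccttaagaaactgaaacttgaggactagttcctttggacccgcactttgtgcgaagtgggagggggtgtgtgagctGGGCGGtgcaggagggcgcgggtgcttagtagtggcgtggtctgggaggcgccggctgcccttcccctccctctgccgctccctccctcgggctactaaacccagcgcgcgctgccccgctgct
The windows lie at chr7:25686752-25687001 on the plus strand (Tgfb1), chr1:186705990-186706239 on the minus strand (Tgfb2), chr13:16011601-16011850 on the plus strand (Inhba), chr12:84876492-84876741 on the minus strand (Ltbp2) and chr13:56609336-56609585 on the plus strand (Tgfbi). Tgfb1 held 5 GC boxes and was 75.2% G and C, against a median of 52.4% over all 32536 windows of this length. Tgfb2 held 1 Smad element, 204 bases before the start, and a TATA box 31 bases before it. Inhba, at 43.2% G and C, held a TATA box 91 bases before the start, while Ltbp2 held 2 GC boxes and Tgfbi held 1. Of all windows, 17% held the Smad element, 0.169% the palindrome, 6.73% the AP-1 element, 33% the GC box and 12.3% the TATA box.

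Library totals ran from 25913969 to 38924788 counts. Values are normalized CPM, each count divided by its library's total on the usual CPM scale after TMM scaling within each organ. A gene was called where edgeR's quasi-likelihood test gave a Benjamini-Hochberg adjusted p under 0.05 over all genes tested and an absolute log2 fold change over 0.5. Tissue identity followed the labels: Umod, the thick ascending limb protein uromodulin, lay between 833 and 1185 CPM in kidney and at no more than 0.0504 in lung. The lung surfactant gene Sftpc lay between 3548 and 16612 CPM in lung and at no more than 0.0867 in kidney.

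Libraries of one kidney group stood apart in RNA of another tissue. The 5 adrenal cortex markers, among them the steroid synthesis genes Cyp11a1, Cyp11b1, Cyp21a1 and Hsd3b1, summed to 630 and 808 CPM in IgGK replicates 1 and 2 and to 16.6 in IgGK replicate 3. The same sum was 6.08 to 6.74 in WTK and 5.43 to 7.64 in LepK, with Cyp11b1 and Cyp21a1 at 0 in every WTK library. Kidney results are therefore also given with IgGK replicate 3 alone, a choice made after seeing the data, in which the lone library is assumed to vary like the other groups. Adipocyte markers differed too, summing to 87.4 to 180 CPM in WTK, 352 to 582 in IgGK and 174 to 341 in LepK. Of these 6 markers, 5 were called up and 1 down in IgGK against WTK. IgGK replicate 3, at 352 CPM, lay above every LepK library, so using it alone does not remove this difference. Cell type markers also moved with the kidney groups. The macrophage list summed to 248 to 286 CPM in WTK, 1714 to 2170 in IgGK and 650 to 935 in LepK, and the fibroblast list to 190 to 251, 1457 to 1658 and 523 to 866. Proximal tubule markers went the other way, at 18396 to 19105 CPM in WTK, 5773 to 6952 in IgGK and 9319 to 11034 in LepK. The fibroblast markers Col1a1, Col1a2, Col3a1, Postn and Dcn are also in the lists of TGF-beta pathway genes given below. The first 3 had means of 342, 408 and 441 CPM in IgGK, so the fibroblast sum is not a readout apart from those lists. In bulk tissue, fewer cells of a type and less RNA per cell cannot be told apart.

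**Figure D1:**
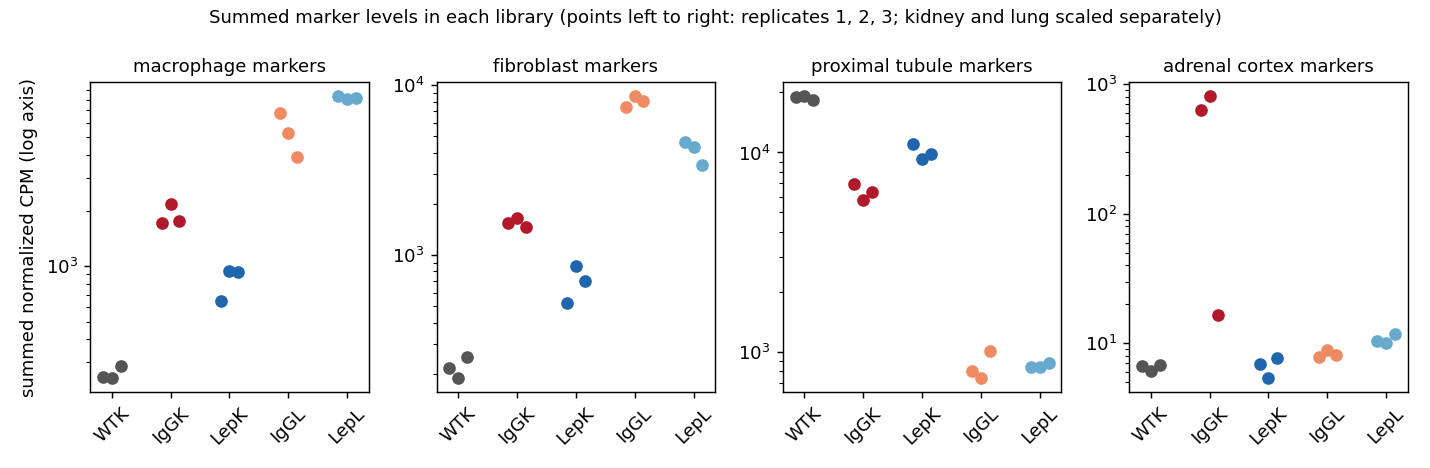
Summed normalized CPM of 4 marker lists (log axis) in each library, by group, with 1 point per replicate. Macrophage and fibroblast sums were lowest in WTK and highest in IgGK among kidneys, and the adrenal cortex sum of IgGK replicates 1 and 2 (630 and 808 CPM) stood far above that of every other library.

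Folic acid injury asked what the TGF-beta system looked like on day 28 after tubular damage. The labels name IgG for IgGK and no antibody for WTK, so folic acid and IgG cannot be told apart here. The same holds for folic acid and LepAb in LepK against WTK. Of the 10 genes, 7 rose in IgGK against WTK and 0 fell: the ligand genes Tgfb1, Tgfb2, Tgfb3 and Inhba, the receptor gene Tgfbr1, and the matrix genes Tgfbi and Ltbp2. Over all 19593 kidney genes tested, 21.7% rose and 15.6% fell. The median log2 fold change of the 10 genes was 1.58, against 0.04 over all genes. At an unadjusted p under 0.05, 0 of the 10 genes were lower as well, beside 27.9% of all genes. By DESeq2, 0 of the 10 were lower too. With IgGK replicate 3 alone, log2 fold changes were 1.32 for Tgfb1, 2.33 for Tgfb2, 1.50 for Tgfb3 and 3.95 for Inhba. In that fit they were 0.67 for Tgfbr1, 0.38 for Tgfbr2, 2.09 for Tgfbi, 5.37 for Ltbp2, 0.52 for Ltbp1 and -0.11 for Smad7.

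Among the ligands, Tgfb1, the most abundant isoform gene here (chr7:25386427-25404502, GRCm39), was at 18.3, 15.6 and 14.6 CPM in WTK and at 39.8, 55.5 and 40.4 in IgGK. The groups did not overlap, and Tgfb1 was 2.80-fold higher in IgGK (log2 fold change 1.49, SE 0.14, edgeR adjusted p = 1.87e-06). Tgfb2, an isoform important in development of the kidney and heart (chr1:186354989-186438186), was low in WTK at 2.20, 2.61 and 3.10 CPM, and reached 9.79, 11.3 and 13.3 in IgGK. That was a 4.33-fold rise (log2 fold change 2.11, SE 0.28, edgeR adjusted p = 3.97e-05). Tgfb3, known from palate and lung development (chr12:86103519-86125815), stood at 2.20, 1.70 and 1.69 CPM in WTK and at 6.46, 6.20 and 5.26 in IgGK. It rose by 1.68 on the log2 scale (SE 0.22, edgeR adjusted p = 3.63e-05). The libraries do not keep strand, and Tgfb3 overlaps genes on the other strand, chief among them Ttll5, so reads from the overlap cannot be told apart. The genes overlapping Tgfb3 were counted at 273 to 332 reads per WTK library in all, where Tgfb3 had 43 to 53. In IgGK they were at 319 to 390 reads, where Tgfb3 had 182 to 217. Tgfb2, Ltbp2 and Inhba have such overlaps too, with opposite-strand neighbours counted at 0 to 51, 0 to 46 and 0 to 20 reads per library in all. In WTK those neighbours were at 0 to 2 reads.

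Inhba, which encodes the beta A subunit of activin A (chr13:16186436-16206206), was barely detected in uninjured kidney. Its counts in WTK were 8, 5 and 16 reads, or 0.332, 0.197 and 0.577 CPM, and it reached 4.78, 6.72 and 5.81 CPM in IgGK. The fitted rise was 3.94 on the log2 scale (SE 0.37, edgeR adjusted p = 1.97e-06), with few reads behind the lower group.

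The receptor genes had smaller differences than the ligand genes. Tgfbr1, the type I receptor kinase (chr4:47353222-47414931), was at 57.9, 63.9 and 59.97 CPM in WTK and at 93.8, 93.7 and 96.6 in IgGK, a 1.56-fold rise (log2 fold change 0.64, SE 0.06, edgeR adjusted p = 3.38e-06). Tgfbr2, the type II receptor that binds the ligand (chr9:115913361-116004428), stood at 116, 113 and 118 CPM in WTK and at 150, 159 and 150 in IgGK. The ranges were apart, but the log2 fold change of 0.41 (SE 0.06, edgeR adjusted p = 8.13e-05) lay under the 0.5 needed for a call.

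The matrix genes spanned the widest range of change. Ltbp2, a microfibril protein of the latent TGF-beta binding family (chr12:84829986-84923306), was at 2.08, 0.237 and 1.44 CPM in WTK, from 50, 6 and 40 reads, and at 47.8, 71.1 and 51.8 in IgGK. This was the largest fitted rise of the 10 genes (log2 fold change 5.51, SE 0.40, edgeR adjusted p = 2.78e-07). Tgfbi, an extracellular matrix protein named for its induction by TGF-beta (chr13:56757336-56787375), went from 14.5, 15.3 and 17.8 CPM to 69.1, 78.1 and 67.5, a 4.50-fold rise (log2 fold change 2.17, SE 0.11, edgeR adjusted p = 4.03e-08). Ltbp1, which tethers latent TGF-beta to the matrix (chr17:75312563-75699507), was at 22.1, 24.7 and 24.2 CPM in WTK and at 31.5, 31.0 and 33.9 in IgGK. Its log2 fold change of 0.44 (SE 0.09, edgeR adjusted p = 0.000999) was under the threshold for a call.

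Smad7, the inhibitory Smad that TGF-beta itself induces and that blocks the type I receptor, did not pass the test. It was at 36.3, 33.2 and 31.9 CPM in WTK and at 28.1, 31.6 and 31.2 in IgGK. The log2 fold change was -0.16 (SE 0.08, edgeR adjusted p = 0.103), and its sign depended on the scaling: without TMM it was 0.28 (edgeR adjusted p = 0.0113). TMM factors were 0.844 to 0.858 in WTK and 1.14 to 1.18 in IgGK, so this choice shifted all kidney genes: with library size alone the median over all genes became 0.48, the calls over all genes became 7803 up and 1178 down in place of 4253 up and 3057 down, and 9 of the 10 genes were called up. Relative to that shifted median, Smad7 was lower. In all, the WTK and IgGK ranges did not overlap for 10 of the 10 genes, beside 62.6% of all kidney genes tested.

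**Figure D2:**
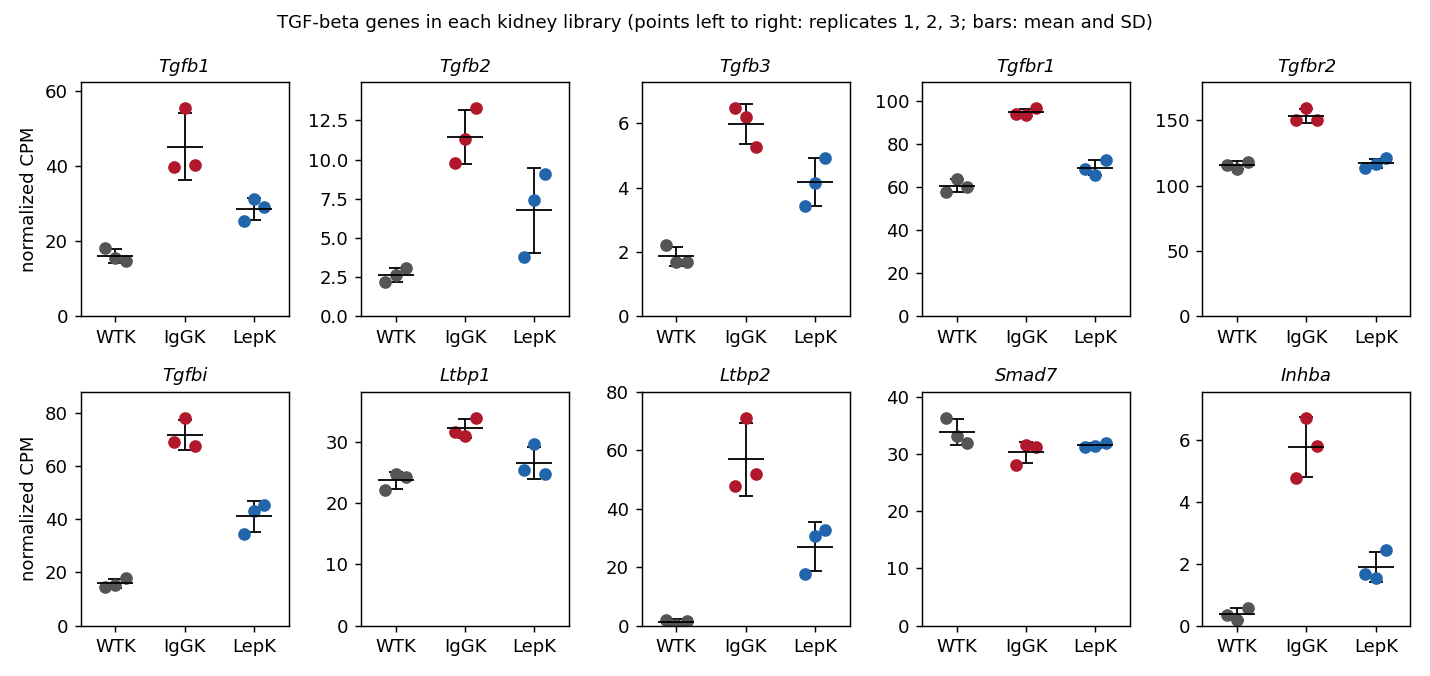
Normalized CPM of the 10 genes in each kidney library, by group, with 1 point per replicate and the mean and SD as bars. For 9 genes every IgGK library sat above WTK, Smad7 sat below it, and LepK lay between WTK and IgGK for most genes (Tgfbi 34.5 to 45.3 CPM, between 17.8 and 67.5).

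LepAb against IgG in folic acid kidney is the antibody comparison, and it uses the same IgGK libraries as the injury comparison, so the contrasts are not independent. In LepK, 4 of the 10 genes fell (Tgfb1, Tgfbi, Ltbp2 and Inhba) and 0 rose, beside 5.99% of all kidney genes that fell and 4.38% that rose. The median log2 fold change was -0.59 for the 10 genes and -0.01 over all genes. No gene of the 10 was higher by DESeq2 or at an unadjusted p under 0.05, where 16.7% of all genes were higher. At that unadjusted p, 9 of the 10 were lower, beside 16.1% of all genes. The ranges of LepK and IgGK did not overlap for 9 of the 10 genes, beside 37.4% of all genes, the exception being Smad7.

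Tgfb1 was at 25.5, 31.3 and 29.3 CPM in LepK, below the lowest IgGK library (39.8). It fell by 0.66 on the log2 scale (SE 0.13, edgeR adjusted p = 0.00456). Inhba was at 1.68, 1.54 and 2.44 CPM, 0.327 of its IgGK level (log2 fold change -1.61, SE 0.31, edgeR adjusted p = 0.00341). Among the 10 genes this was the largest fitted fall. Tgfbi was at 34.5, 43.2 and 45.3 CPM and fell by 0.80 (SE 0.11, edgeR adjusted p = 0.000511). Ltbp2, at 17.5, 30.7 and 32.8 CPM, fell by 1.08 (SE 0.29, edgeR adjusted p = 0.0192), and its lowest value came from LepK replicate 1.

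Tgfb2 and Tgfb3 were lower on average in LepK but did not pass the test as fitted here. Tgfb2 was at 3.79, 7.44 and 9.08 CPM, with replicate 1 well under the others (log2 fold change -0.76, SE 0.26, edgeR adjusted p = 0.0604). It did pass with library-size scaling (adjusted p = 0.0290), with no filter on low counts (0.00171), with a replicate block (0.00888) and without LepK replicate 3 (0.0279), all in edgeR, and by DESeq2 (adjusted p = 0.0232). It did not pass in edgeR with RLE scaling (adjusted p = 0.0603) or with only the 2 groups compared (0.0910). Nor did Tgfb2 pass in edgeR without IgGK replicate 1, 2 or 3 (adjusted p = 0.0761, 0.125 and 0.194). The same was so without LepK replicate 1 or 2 (0.146 and 0.0725). Tgfb3 was at 3.42, 4.16 and 4.91 CPM (log2 fold change -0.52, SE 0.21, edgeR adjusted p = 0.104). The receptor genes and Ltbp1 passed the p threshold with changes too small for a call. Tgfbr1 was at 68.5, 65.6 and 72.7 CPM (log2 fold change -0.46, SE 0.06, edgeR adjusted p = 0.000642) and Tgfbr2 at 114, 117 and 121 (log2 fold change -0.39, SE 0.06, edgeR adjusted p = 0.00105). Ltbp1, at 25.3, 29.5 and 24.7 CPM, had a log2 fold change of -0.28 (SE 0.09, edgeR adjusted p = 0.0424). Smad7, at 31.1, 31.4 and 31.9 CPM, lay within 1 CPM across the LepK libraries (log2 fold change 0.06, SE 0.08, edgeR adjusted p = 0.663).

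With IgGK replicate 3 alone as the control, 1 of the 10 genes was called down in LepK, when 235 of all kidney genes were, in place of 1174. That gene was Tgfbi (log2 fold change -0.71, edgeR adjusted p = 0.0292). The estimates for Inhba (-1.61, adjusted p = 0.0804), Ltbp2 (-0.93, adjusted p = 0.240) and Tgfb1 (-0.48, adjusted p = 0.0923) kept their direction without passing edgeR's test. The part of adrenal RNA in the antibody comparison was not tested beyond this, and that of adipocyte RNA was not tested. Leaving out IgGK replicate 2, which held the highest Tgfb1, Tgfbi, Ltbp2 and Inhba values of its group, left 2 of the 10 genes called, Tgfbi and Inhba. Macrophage and fibroblast markers moved with these falls: 8 of 10 macrophage markers and 8 of 10 fibroblast markers fell in LepK against IgGK, 4 of the 5 neutrophil markers tested fell, and 6 of 8 proximal tubule markers rose. The fibroblast list shares genes with the pathway lists, as given above. The part of these cell type markers in the falls of the TGF-beta genes was not tested.

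LepK kidneys still differed from uninjured kidneys. Against WTK, 6 of the 10 genes were higher in LepK and 0 were lower, beside 15.2% and 7.3% of all genes. Fitted rises were 0.83 for Tgfb1, 1.35 for Tgfb2, 1.16 for Tgfb3, 1.37 for Tgfbi, 4.43 for Ltbp2 and 2.32 for Inhba on the log2 scale, with edgeR adjusted p of 0.00244 or less. The receptor genes and Ltbp1 were not called: Tgfbr1 differed by 0.19 (SE 0.06, edgeR adjusted p = 0.0373), Tgfbr2 by 0.02 (SE 0.06, edgeR adjusted p = 0.826) and Ltbp1 by 0.16 (SE 0.09, edgeR adjusted p = 0.168). The Tgfbr2 ranges, 114 to 121 CPM in LepK and 113 to 118 in WTK, overlapped, whereas for the other 9 genes they did not, beside 50.2% of all genes. Smad7 and Ltbp1 were barely apart. The highest Smad7 value in LepK was 31.90 CPM and the lowest in WTK 31.92 (edgeR adjusted p = 0.326). The lowest Ltbp1 value in LepK was 24.74 CPM and the highest in WTK 24.68. By DESeq2 and at an unadjusted p under 0.05, 0 of the 10 genes were lower here too, beside 22.5% of all genes at that p.

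Bleomycin lung addressed the same antibody question in another organ. In LepL against IgGL, 4 of the 10 genes fell (Tgfbr2, Tgfbi, Ltbp1 and Inhba) and 0 rose, beside 2.36% of the 19617 lung genes that fell and 1.78% that rose. Inhba was at 26.5, 54.1 and 94.5 CPM in IgGL and at 21.5, 17.5 and 11.99 in LepL. The IgGL libraries spread widely, yet the lowest of them was above the highest LepL library, and Inhba fell by 1.78 on the log2 scale (SE 0.41, edgeR adjusted p = 0.0471). Tgfbi was at 316, 480 and 700 CPM in IgGL, likewise lowest in replicate 1 and highest in replicate 3, and at 216, 224 and 146 in LepL. It fell by 1.35 (SE 0.28, edgeR adjusted p = 0.0394).

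Tgfbr2, whose kidney changes were under the fold threshold, was at 514, 615 and 660 CPM in IgGL and at 402, 366 and 328 in LepL. The groups were apart, and Tgfbr2 fell by 0.71 on the log2 scale (SE 0.14, edgeR adjusted p = 0.0365). Ltbp1 was at 156, 205 and 222 CPM in IgGL and at 114, 125 and 116 in LepL. Its fitted fall was also 0.71 (SE 0.14, edgeR adjusted p = 0.0365).

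The isoform genes did not pass the test in lung. Tgfb1 was at 108, 126 and 154 CPM in IgGL and at 107, 88.2 and 83.7 in LepL, so that the highest LepL library lay just under the lowest IgGL library (log2 fold change -0.48, SE 0.15, edgeR adjusted p = 0.0850). Tgfb2 was on the other side, at 73.3, 62.0 and 45.7 CPM in IgGL and at 87.0, 80.4 and 73.9 in LepL (log2 fold change 0.41, SE 0.16, edgeR adjusted p = 0.145). Tgfb2 was the 1 gene of the 10 that was higher at an unadjusted p under 0.05, beside 13.2% of all lung genes. At that p, 6 of the 10 were lower, beside 14.1% of all lung genes. DESeq2 called 0 of the 10 genes up. Tgfb3, at 64.4, 49.3 and 38.4 CPM in IgGL and at 63.3, 60.4 and 47.3 in LepL, overlapped between groups (log2 fold change 0.17, SE 0.19, edgeR adjusted p = 0.606).

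Tgfbr1 overlapped as well, at 119, 128 and 139 CPM in IgGL and at 123, 107 and 90.3 in LepL (log2 fold change -0.27, SE 0.13, edgeR adjusted p = 0.218). Ltbp2 was at 529, 453 and 227 CPM in IgGL and at 287, 272 and 170 in LepL, where IgGL replicate 3 fell among the LepL values (log2 fold change -0.73, SE 0.30, edgeR adjusted p = 0.164). Smad7 was level, at 78.8, 70.2 and 86.2 CPM in IgGL and at 70.6, 81.9 and 82.3 in LepL (log2 fold change -0.00, SE 0.11, edgeR adjusted p = 0.990). The lung ranges did not overlap for 6 of the 10 genes, beside 33.3% of all genes.

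The lung calls rested on every library but 1. Leaving out any library other than IgGL replicate 1 left 0 of the 10 genes called in lung by edgeR, while the fitted log2 fold changes of Tgfbr2, Tgfbi, Ltbp1 and Inhba kept their direction in these 5 fits (-0.63 to -0.78, -1.03 to -1.46, -0.61 to -0.75 and -1.25 to -1.98). The same held for the lung table as a whole, where these 5 fits called 0 to 18 genes up and 0 to 4 down. Without IgGL replicate 1, 5 of the 10 genes were called down and Tgfb2 was called up (log2 fold change 0.58, edgeR adjusted p = 0.0224). Over all 20435 genes tested in that fit, 1602 were called down and 1937 up. Other cell types moved alongside. Fibroblast markers summed to 7490 to 8590 CPM in IgGL and 3373 to 4644 in LepL, with 5 of 10 called down and 0 up. Of these, Col1a1, Col1a2 and Col3a1, also in the pathway lists, had means of 2244, 2113 and 2517 CPM in IgGL. Neutrophil markers summed to 218, 234 and 585 in IgGL and to 113 to 139 in LepL, with 4 of 7 tested called down. The macrophage sum was higher in LepL (8068 to 8322 against 3880 to 6749 CPM), and Lyz2 held much of it, at a mean of 3644 CPM in IgGL and 7169 in LepL (log2 fold change 0.98, SE 0.28, edgeR adjusted p = 0.0752). The other 9 of its 10 markers had lower estimates in LepL, 3 of them called down and 0 of the 10 called up, and the median log2 fold change of the list was -0.67. Alveolar type 2 markers summed to 6894 to 12923 in IgGL and 18569 to 25249 in LepL, with 3 of 7 called up. RNA of other tissues differed between the lung groups too. Cardiac and skeletal muscle markers summed to 257 to 662 CPM in IgGL and 680 to 1684 in LepL, with 1 of 7 called up. Adipocyte markers summed to 41.0 to 90.6 in IgGL and 136 to 168 in LepL, with 2 of 5 tested called up. The part of these markers in the lung results was not tested.

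**Figure D3:**
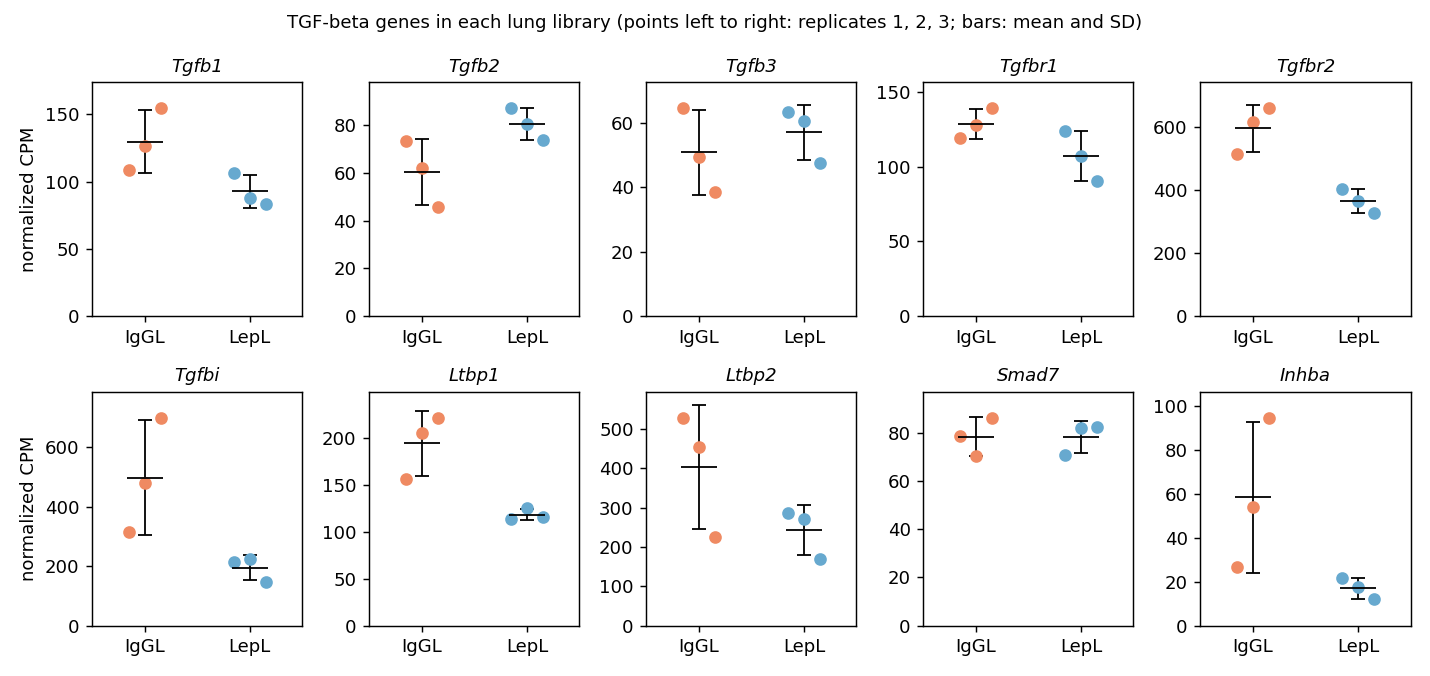
Normalized CPM of the 10 genes in each lung library, by group, with 1 point per replicate and the mean and SD as bars. Tgfbr2, Tgfbi, Ltbp1 and Inhba were higher in every IgGL library than in any LepL library, and Tgfb2 was the reverse.

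**Figure D4:**
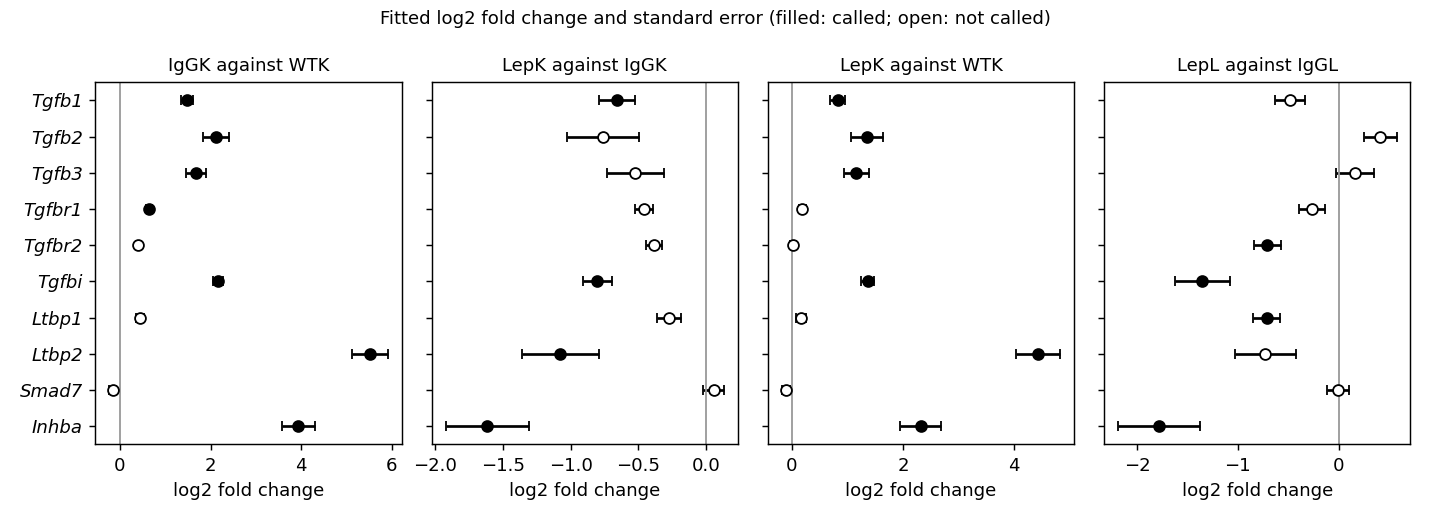
Fitted log2 fold change (horizontal axis, a scale of its own in each panel) with its standard error for the 10 genes in 4 comparisons, filled where called. IgGK against WTK is to the right of 0 for 9 genes, whereas LepK against IgGK and LepL against IgGL are to the left of 0 for 9 and 8 genes.

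Whether the antibody effect differed between the organs was tested directly, as (LepK minus IgGK) minus (LepL minus IgGL) on the log2 scale. At an edgeR adjusted p under 0.05, 0 of the 10 genes differed, beside 7.12% of the 21488 genes tested. At an unadjusted p under 0.05, 4 of the 10 did (Tgfb2, Tgfb3, Tgfbr2 and Ltbp1), beside 25.4% of all genes tested. Tgfb2 had the largest difference, at -1.15 (SE 0.34, edgeR adjusted p = 0.0561), with a negative estimate in kidney and a positive one in lung, and it was the 1 gene called by DESeq2 (adjusted p = 0.0125). Ltbp1 differed by 0.47 (SE 0.17, edgeR adjusted p = 0.107) and Tgfb3 by -0.66 (SE 0.27, edgeR adjusted p = 0.140). For Tgfbi and Inhba, which were called down in both organs, the differences were 0.58 (SE 0.33, edgeR adjusted p = 0.294) and 0.19 (SE 0.54, edgeR adjusted p = 0.877). The count changed with 2 of the libraries. Without IgGL replicate 1, 5 genes differed (Tgfb2, Tgfb3, Tgfbr2, Tgfbi and Ltbp1), beside 3763 of the 22313 genes tested in that fit. Without LepK replicate 3, 1 did (Tgfb2), beside 841 of 22426. With all libraries, 1531 of the 21488 genes tested differed. Organ, injury, day and dosing schedule cannot be told apart in this contrast.

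Levels of the 3 isoform genes can be set beside each other in FPKM, the authors' length-scaled values. As a share of their summed FPKM, Tgfb1 made up 76.0% ± 2.12 of it in uninjured WTK kidney. Its share was 70.2% ± 3.68 for IgGK and 70.7% ± 4.74 for LepK (SD, n = 3 each). The rises of all 3 isoform genes in IgGK against WTK therefore left Tgfb1 at the largest share in every kidney library. In lung the share of Tgfb1 was 50.5% ± 10.5 in IgGL and 37.5% ± 1.68 in LepL (SD, n = 3). The lung groups did not overlap (40.4 to 61.4% against 35.5 to 38.5%). Tgfb2 went from 20.3% ± 4.08 in IgGL to 28.3% ± 1.04 in LepL and Tgfb3 from 29.2% ± 6.50 to 34.2% ± 2.002 (SD, n = 3), the Tgfb3 ranges overlapping. These shares are descriptions with no test.

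**Figure D5:**
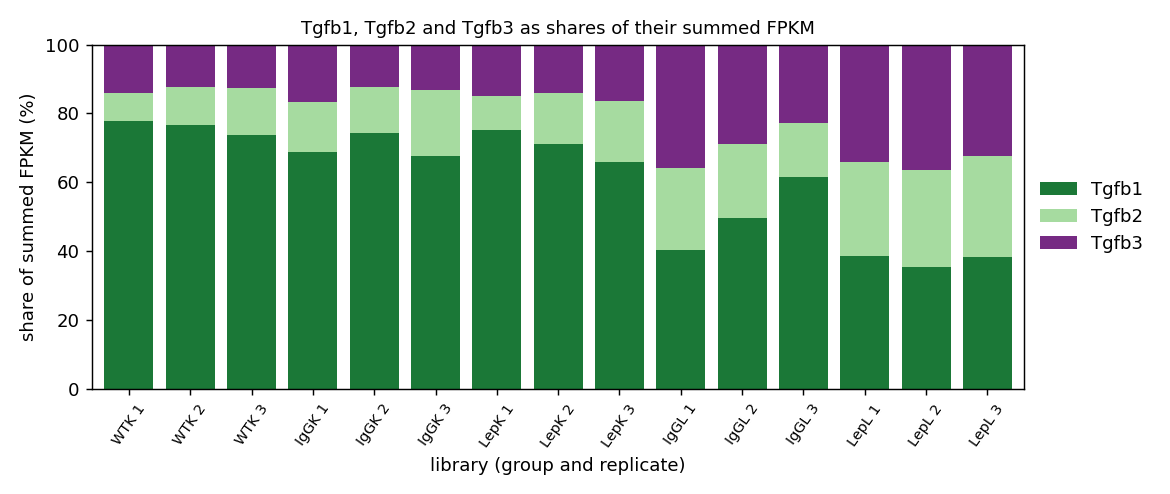
Share of Tgfb1, Tgfb2 and Tgfb3 in their summed FPKM (percent) in each of the 15 libraries, as stacked bars. Tgfb1 took at least 65.8% in every kidney library and 35.5 to 61.4% in lung, lowest in LepL.

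Set in order of FPKM, Tgfbr2 led in uninjured kidney at 11.7 ± 0.306 (SD, n = 3), followed by Tgfbr1 at 7.67, Smad7 at 6.18, Tgfbi at 3.48, Tgfb1 at 2.65 and Ltbp1 at 1.83. Tgfb3 (0.456) and Tgfb2 (0.377) overlapped, as did Ltbp2 (0.126) and Inhba (0.0478) at the bottom. In IgGK, Tgfbi (15.3 ± 1.23) and Tgfbr2 (15.1 ± 0.517) stood first with overlapping ranges, and Tgfb1 (7.23), Ltbp2 (5.60) and Smad7 (5.40) overlapped from one to the next. In LepK, Tgfbr2 was again first at 11.7 ± 0.324, ahead of Tgfbi (8.91) and Tgfbr1 (8.65), which overlapped. Lung levels were led by Tgfbi at 90.2 ± 33.5 FPKM in IgGL, above Tgfbr2 at 49.8 ± 5.45. In LepL the 2 genes were at 36.3 ± 7.92 and 31.3 ± 3.22 and overlapped. Inhba was last in all 5 groups, although in IgGL (6.22 ± 3.56) it overlapped with Tgfb2 (7.15).

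The wider pathway was read from 72 further genes in 6 lists, of which 71 were tested in kidney and 72 in lung. In IgGK against WTK, 39 rose and 7 fell, with a median log2 fold change of 0.81, beside 21.7% of all kidney genes that rose and 15.6% that fell. With library-size scaling 48 rose and 1 fell, beside 7803 and 1178 of all kidney genes. The response list, 20 genes taken as TGF-beta response genes with no direction set for each, had 16 rises and 1 fall (Id2). Collagen genes led it: Col3a1 rose by 3.91 (SE 0.21, edgeR adjusted p = 4.12e-08) and Col1a1 by 3.88 (SE 0.23, edgeR adjusted p = 7.86e-08). Ccn2, the classical matricellular target, was not called (log2 fold change 0.02, SE 0.14, edgeR adjusted p = 0.901). Of 14 latency and activation genes, 8 rose and 2 fell, with Mmp14, a membrane-bound metalloproteinase, up by 3.69 (SE 0.17) and Fbn1, which encodes the microfibril protein fibrillin, up by 2.47 (SE 0.11). The propeptide-cutting protease gene Furin fell by 0.78 (SE 0.07).

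Among 8 other ligands tested, 4 rose and 2 fell. Inhbb, the beta B subunit of activin, rose by 2.53 (SE 0.24, edgeR adjusted p = 2.43e-06) and Bmp2 by 2.34 (SE 0.26), while Bmp7, a ligand of the healthy tubule, fell by 1.07 (SE 0.09, edgeR adjusted p = 6.67e-07). Of 9 other receptors, 2 rose and 1 fell (22.2% and 11.1%), shares near those of all genes, with Acvr1 up by 0.81 (SE 0.12) and Acvr2b lower by 0.70 (log2 fold change -0.70, SE 0.17). Of 13 Smads and regulators, 5 rose and 1 fell. Pmepa1, a feedback inhibitor of the pathway, rose by 1.37 (SE 0.09) and the corepressor Tgif1 by 1.18 (SE 0.11). Of 7 secreted antagonists, 4 rose and 0 fell. Grem1, a BMP antagonist, rose by 2.71 (SE 0.45) and Fstl1 by 1.97 (SE 0.14).

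In LepK against IgGK, 20 of the 71 genes fell and 1 rose (Id1), with a median of -0.23, beside 5.99% of all kidney genes that fell and 4.38% that rose. With IgGK replicate 3 alone as the control, 6 of the 71 fell and 0 rose. The response list had 11 falls and 1 rise, with Col3a1 down by 1.52 (log2 fold change -1.52, SE 0.19, edgeR adjusted p = 0.000359) and the fibronectin gene Fn1 at -1.25 (SE 0.14, edgeR adjusted p = 0.000183). Latency and activation genes had 4 falls, led by Fbn1 (log2 fold change -1.34, SE 0.10) and the integrin gene Itgb3 (-1.19, SE 0.21). The activin subunit gene Inhbb fell by 1.49 (SE 0.23, edgeR adjusted p = 0.00100) and Bmp2 by 1.09 (SE 0.24), 2 falls among 8 ligands. Of the 9 other receptors, 0 were called. Pmepa1 fell by 0.54 (SE 0.09), the 1 call among 13 Smads and regulators, and the antagonists Fstl1 (-0.87, SE 0.14) and Dcn (-0.60, SE 0.15) fell among 7. Against WTK, LepK had 33 of the 71 genes higher and 2 lower, beside 15.2% and 7.3% of all genes, led by Mmp14 (log2 fold change 2.76, SE 0.17), Col1a1 (2.65, SE 0.22) and Col3a1 (2.39, SE 0.20). Grem1 (2.06, SE 0.46), Inha (1.78, SE 0.30), Bmp2 (1.26, SE 0.26), Fbn1 (1.13, SE 0.11), Fstl1 (1.10, SE 0.14), Tgif1 (0.97, SE 0.11) and Pmepa1 (0.83, SE 0.09) were also higher.

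In LepL against IgGL, 17 of the 72 genes fell and 0 rose, with a median of -0.29, beside 2.36% of all lung genes that fell. Leaving out any library other than IgGL replicate 1 left 0 of the 72 called, as did a replicate block. Without IgGL replicate 1 there were 26 falls and 6 rises, beside 1602 falls and 1937 rises over all 20435 genes tested. Fst, which encodes the activin-binding protein follistatin, had the largest fall at -2.60 on the log2 scale (SE 0.46, edgeR adjusted p = 0.0327), from 160 ± 95.0 CPM in IgGL to 26.3 ± 8.88 in LepL (SD, n = 3). Grem1 followed it among 4 of 7 antagonists that fell (-1.59, SE 0.33, edgeR adjusted p = 0.0392). In the response list 8 of 20 genes fell, among them Fn1 by 1.34 (SE 0.24, edgeR adjusted p = 0.0337). Fbn1 (-1.34, SE 0.19) and Furin (-0.94, SE 0.19) led 4 falls among 14 latency and activation genes. Pmepa1 fell by 0.89 (SE 0.14), and 0 of 9 other receptors and 0 of 9 other ligands were called.

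By likeness of profile over the 9 kidney libraries, Tgfb1 lay closest to Irf1, Jun and Themis2 (Pearson r of log2 CPM 0.995, 0.993 and 0.993), and Tgfb2 to Cstb, Hnrnpdl and Eif6 (0.992, 0.988 and 0.987). Tgfbi lay closest to Axl, Arpc1b and Colec12 (each 0.999) and Inhba to Tns3, Il10ra and Igsf6 (0.995, 0.995 and 0.993). Over the 6 lung libraries the nearest genes were Gm9892, Tprn and Gm5560 for Tgfb1 (0.998, 0.997 and 0.997), Invs, Rsl1 and Tor4a for Tgfb2 (0.999, 0.997 and 0.997), Sh2d5, Kars and Arpc2 for Tgfbi (0.999, 0.999 and 0.998), and Cd63, Tmem183a and Mvp for Inhba (each 0.999). The nearest were picked from 15603 genes in kidney and 15921 in lung, and the libraries share the group differences described above. Within the 10 genes, Tgfb1 and Tgfb2 had r = -0.82 over the 6 lung libraries, Tgfbi and Inhba 0.99 in lung and 0.98 over the 9 kidney libraries, and Smad7 and Tgfbi -0.73 in kidney.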

How the data were processed

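The authors deposited 1 table of raw read counts per gene for the 15 libraries, beside FPKM per gene, made from non-directional poly(A) libraries. The build (GRCm39, mm39) and DESeq2 are named in the submitters' processing notes, and the aligner and counter are not given in the sources used here. The authors' columns of group means, fold changes and p-values were not used. The 10 genes and the lists were chosen with earlier results of these data known. Counts were fitted with edgeR 4.0.16 in R 4.3.3 (TMM, filterByExpr with a minimum count of 10), with 9 kidney libraries in one fit, 6 lung libraries in another, and 12 in the fit for the difference between organs, without covariates. Calls needed an adjusted p under 0.05 and, within an organ, an absolute log2 fold change over 0.5. Columns were matched to samples by the sample titles. A description line that named columns disagreed with the titles and was not used. Replicates differed by more than sampling noise (chi-square per gene 7.15 to 98.6). In simulated counts, true log2 changes of 1 were called in 56.0% (IgGK against WTK), 60.6% (LepK against IgGK) and 43.9% (LepL against IgGL) of the changed genes. Each simulation changed at most 100 genes by 1 and at most 100 by 2, among 19050 to 19114 genes fitted. That was a smaller share than was called in these data, so the rates need not hold for them. Named pathway genes were the 2 called genes of largest change in each list and comparison, and any other was chosen after its values were seen, and 1 gene that this rule names is not reported here. Alternatives were other scalings (RLE, library size), no filter, no fold threshold, DESeq2 1.42.0, other sets of libraries, a replicate block and leaving out each library.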

Additional observations from a re-analysis of the deposited data

Results flagged for a closer look

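The antibody effect of 6 named pathway genes differed between kidney and lung in edgeR's test of the difference itself, (LepK minus IgGK) minus (LepL minus IgGL) on the log2 scale, and each is given here with its own effects. They are among 9 of the 72 pathway genes that differed, 8.33% with a positive and 4.17% with a negative difference. Over all 21488 genes tested, 7.12% differed in either direction. Fst, the activin-binding follistatin, differed by 2.67 (SE 0.54, edgeR adjusted p = 0.0192), with 0.03 in kidney and -2.60 in lung. Furin, a propeptide-cutting protease, differed by 1.30 (SE 0.22, edgeR adjusted p = 0.0107), with 0.32 in kidney and -0.94 in lung. Bmp7 differed by 1.34 (SE 0.34, edgeR adjusted p = 0.0341), with 0.47 in kidney and -0.85 in lung, where it was low (4.46 CPM in IgGL and 2.46 in LepL). Acvr1b, an activin type I receptor gene, differed by 0.44 (SE 0.11, edgeR adjusted p = 0.0339), with 0.17 in kidney and -0.24 in lung. Snai2, a transcription factor of mesenchymal cells, differed by -1.11 (SE 0.31, edgeR adjusted p = 0.0466), with -0.91 in kidney and 0.23 in lung. The matrix gene Postn differed by -0.72 (SE 0.20, edgeR adjusted p = 0.0449), with -1.07 in kidney and -0.32 in lung. With IgGK replicate 3 alone as the kidney control, 0 of the 72 pathway genes differed, as against 9 with all 3 libraries, and 4 of all genes tested did. With 1 library left out, 2 to 20 of the 72 differed, and 352 to 3763 of all genes. These genes were picked as the 2 largest called differences of their lists, and organ, injury, day and dosing schedule cannot be told apart.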

How the results depend on the processing

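Depth limited Inhba, Ltbp2 and Tgfb3 in WTK, where counts ran from 5 to 53. The 7 rises in IgGK against WTK and the 6 in LepK against WTK were called under every alternative run. The 4 falls in LepK against IgGK became 8 with library-size scaling, 7 with no fold threshold and 1 with IgGK replicate 3 alone, and 2 to 5 with 1 library left out. With library-size scaling the median over all genes moved to 0.48, -0.19 and 0.29 in the 3 kidney comparisons and to -0.25 for the difference between organs. The replicate numbers are shared between groups and were not taken as pairs in the main fits. Same-numbered libraries had r of -0.03 to 0.18 over 9 kidney pairs and -0.06 to 0.07 over 3 lung pairs. Between IgGK and LepK, r was 0.18 for replicate 1, 0.17 for replicate 2 and -0.03 for replicate 3. It was -0.19 for IgGK replicate 1 with LepK replicate 2, and -0.19 for IgGK replicate 2 with LepK replicate 1. Pairing of these kidney libraries is therefore not excluded. A replicate block brought Tgfb2 in LepK against IgGK to an edgeR adjusted p of 0.00888. With a replicate block, 0 genes fell in LepL against IgGL and 1 differed between the organs. With 1 library left out, 0 to 5 genes fell and 0 to 1 rose in LepL against IgGL. The 0 genes that differed between the organs became 1 with library-size scaling, 2 with no filter, 1 with DESeq2, and 0 to 5 with 1 library left out. The causes were not tested.

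Signs turned for values near 0. With library-size scaling the Smad7 log2 fold change against WTK was 0.28 in IgGK and 0.16 in LepK, that of the antibody was -0.12 in kidney and 0.0366 in lung, and the difference between organs was -0.16 for Smad7 and -0.0711 for Inhba. With no filter, Smad7 in LepL against IgGL was 0.0106. With 1 library left out, Smad7 in LepL against IgGL ranged from -0.0773 to 0.0684, Tgfbr2 in LepK against WTK from -0.0037 to 0.0447, and the differences between organs from -0.32 to 0.0237 for Tgfb1, -0.0145 to 0.16 for Smad7 and -0.37 to 0.54 for Inhba. The Tgfb1 difference was 0.00906 with IgGK replicate 3 alone.

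Over all genes, library-size scaling moved the calls in LepK against IgGK from 858 up and 1174 down to 408 and 2185, those of IgGK against WTK to 7803 and 1178, and those of LepK against WTK from 2984 and 1431 to 4782 and 512. With IgGK replicate 3 alone, LepK against IgGK had 429 up and 235 down, with no fold threshold 2150 and 1875, and 695 or 709 down without IgGK replicate 2 or LepK replicate 1. No fold threshold also gave 5040 down in IgGK against WTK and 3650 down in LepK against WTK. In LepL against IgGL, the 349 up and 463 down became 1205 and 1089 with DESeq2, 1515 and 1173 with no filter, 1069 and 998 when fitted with IgGK and LepK, 1 and 3 with the replicate block, and 0 to 1937 and 0 to 1602 with 1 library left out. The 1531 genes that differed between organs became 2659 with no filter, 2768 with DESeq2, 4 with IgGK replicate 3 alone and 352 to 3763 with 1 library left out.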
